A study of Mus musculus with 4 samples.

Results

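The 9 genes described here encode the enzymes that join fatty acids to a glycerol backbone and those that make that backbone from non-sugar carbon. They were picked by symbol, as Gpam, Gpat3, Agpat2, Lpin1, Dgat1, Dgat2, Mogat1, Pck1 and Gpd1, and all 9 were found among the 32285 genes of the RNA matrices. RNA of single nuclei was measured in 1 library from the pooled thymi of 6 male mice of 4 months and in 1 library from epigonadal white fat of 4-month males. Chromatin accessibility was measured in nuclei from the pooled thymi of 16 females of 6 months, in a multiome library whose RNA matrix was not analysed here. All mice were labelled WT and naïve, the thymus donors were C57/BL6 mice on standard chow, and how many mice gave the epigonadal fat is not stated in the labels. Nuclei came from the floating layer that forms after tissue digestion, which enriches for cells filled with fat but does not sort them. Tissue and library are the same thing in this design, so any thymic to epigonadal difference is between 2 libraries and has no replicate check. Age, sex and assay also differ together between the RNA and the accessibility libraries.

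Adipocytes store energy as triglyceride, which is built in steps on the endoplasmic reticulum and the outer mitochondrial membrane. Glycerol 3-phosphate takes up a first fatty acid to give lysophosphatidic acid, a second to give phosphatidic acid, loses its phosphate to give diacylglycerol, and takes up a last fatty acid to give triglyceride. White adipocytes have little glycerol kinase, so they make most of the glycerol 3-phosphate from glucose or, in fasting, from pyruvate through phosphoenolpyruvate, a route called glyceroneogenesis that lets them recapture fatty acids released by lipolysis. Agpat2 and Pck1 are known in fat as genes controlled by PPARγ, the master regulator of adipocytes, and loss of AGPAT2 or of the lipin encoded by Lpin1 in mice leads to lipodystrophy.

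The authors' labels divide the 4-month nuclei into Ad I (sublabels Ia and Ib) and Ad II (sublabels IIa, IIb and IIc), and values for Ad I pool both of its sublabels. The thymic library held 22600 barcodes and 10054839 UMIs (unique molecules), of which 365 barcodes carried a label. The epigonadal library held 5043 barcodes and 6504841 UMIs, with 1564 labelled. In Ad I there were 84 thymic and 258 epigonadal nuclei with medians of 500.5 and 744.5 UMIs, and in Ad IIa there were 231 and 590 nuclei with medians of 1696 and 1916 UMIs. The libraries shared 147 barcodes, none of them labelled in both. Levels are given as CPM, UMIs scaled to a total of 1000000 nuclear-encoded UMIs in the same sum of nuclei, with exact 95% Poisson intervals that cover counting error only.

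The label of an adipocyte was checked against 12 adipocyte markers, and it was not borne out by every marker in every group. Thymic Ad I held Plin1, the coat protein of the fat droplet, at 881 CPM and Adipoq, the adipocyte hormone adiponectin, at 230 CPM, against 618 and 383 CPM in epigonadal Ad I. Thymic Ad IIa held only 4 UMIs each of Adipoq and Plin1 (9.96 CPM) over 231 nuclei, while 10 endothelial markers summed to 9007 CPM there and Pecam1 alone stood at 986 CPM. Thymic Ad IIc had Plin1, Plin4 and Lep at 0, of which Lep was also at 0 in thymic Ad I. Its erythroid markers stood at 25892 CPM and its endothelial markers at 7980 CPM. Epigonadal Ad IIc, by contrast, had Adipoq at 2513 CPM and endothelial markers at 415 CPM. Epigonadal Ad IIa had endothelial markers at 6669 CPM together with Adipoq at 449 CPM. The same label therefore covered nuclei of different RNA content in the 2 libraries. The sum of all 12 adipocyte markers does not show this, since it stood at 12555 CPM in thymic Ad IIa and 19369 in thymic Ad IIc, above thymic Ad I at 11428, with Fabp4 as 3557 of the 5040 UMIs in thymic Ad IIa. Pparg, which encodes PPARγ, was also higher there, at 2371 CPM in thymic Ad IIa and 1603 in thymic Ad IIc against 1417 in thymic Ad I. Within Ad I the markers also differed, with Cidec at 613 thymic against 2562 epigonadal CPM, Retn at 134 against 580, Fabp4 at 2833 against 6174 and Lep at 0 against 53.1. Others went the other way, as Plin1 did, with Pparg at 1417 thymic against 891 epigonadal CPM, Lpl at 2622 against 1823 and Lipe at 1034 against 876.

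Promoter sequences are shown for Pck1 and Agpat2, whose listed starts had the most fragments in thyAD I among the 6 genes with a listed start, for Gpam because it has 2 listed starts, and for Lpin1 because its RNA was higher in Ad Ia than in Ad Ib in both libraries. Each run is the 250 bases before a start, 5′ to 3′ on the gene's strand, from RefSeq on GRCm38.p6, with searched motifs in capitals. Pck1 lies at chr2:173152823-173153072 (plus strand), Agpat2 at chr2:26604418-26604667, the upstream Gpam start at chr19:55127239-55127488, the downstream Gpam start at chr19:55099478-55099727 and Lpin1 at chr12:16610967-16611216 (all 4 on the minus strand).
Pck1: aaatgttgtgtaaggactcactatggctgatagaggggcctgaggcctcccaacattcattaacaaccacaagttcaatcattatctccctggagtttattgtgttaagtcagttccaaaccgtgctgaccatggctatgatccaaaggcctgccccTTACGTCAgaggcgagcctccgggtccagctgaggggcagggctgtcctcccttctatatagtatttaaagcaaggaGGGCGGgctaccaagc
Agpat2: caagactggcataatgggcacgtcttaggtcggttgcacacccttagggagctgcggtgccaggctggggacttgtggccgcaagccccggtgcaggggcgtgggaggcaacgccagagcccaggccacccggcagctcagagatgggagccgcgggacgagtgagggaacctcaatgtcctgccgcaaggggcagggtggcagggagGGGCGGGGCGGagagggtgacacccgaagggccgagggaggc
Gpam upstream start: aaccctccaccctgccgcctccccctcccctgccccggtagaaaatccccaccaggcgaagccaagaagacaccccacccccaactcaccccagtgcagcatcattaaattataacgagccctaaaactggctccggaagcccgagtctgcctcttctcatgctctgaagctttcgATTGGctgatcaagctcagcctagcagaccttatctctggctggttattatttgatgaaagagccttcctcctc
Gpam downstream start: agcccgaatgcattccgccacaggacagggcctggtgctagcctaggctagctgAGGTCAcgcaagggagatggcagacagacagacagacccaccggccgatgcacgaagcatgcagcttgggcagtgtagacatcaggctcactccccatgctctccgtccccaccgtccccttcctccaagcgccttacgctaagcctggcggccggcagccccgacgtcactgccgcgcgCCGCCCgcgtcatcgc
Lpin1: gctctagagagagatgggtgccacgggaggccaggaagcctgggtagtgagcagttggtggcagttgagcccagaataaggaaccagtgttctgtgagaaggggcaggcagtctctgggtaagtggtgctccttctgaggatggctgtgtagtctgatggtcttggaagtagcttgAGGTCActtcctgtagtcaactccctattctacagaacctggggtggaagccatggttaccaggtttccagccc
The first capitals in Pck1 are TTACGTCA, 93 to 86 bases before the start, the cyclic AMP response element for which this promoter is known and through which fasting signals act. The motif occurred on either strand in 0.447% of the 32851 promoters of the same length. The capitals AGGTCA, a half-site of nuclear receptors such as the PPARs, stood 74 to 69 bases before the Lpin1 start and 196 to 191 bases before the downstream Gpam start, and were found in 14.0% of all promoters. GGGCGG, the GC box, occurred once in Pck1, in 2 overlapping copies in Agpat2 and on the opposite strand (CCGCCC) at the downstream Gpam start, and in 32.7% of all promoters. ATTGG at the upstream Gpam start is CCAAT on the opposite strand, found in 33.8%. The full direct repeat of that half-site with 1 base between the copies, the perfect form of a PPAR site, was in none of the 7 listed promoters of the 6 genes with an entry and in 0.0335% of all promoters. Dgat1, Dgat2 and Gpd1 are named only. A match is a run of letters and shows no binding.

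Summed over the 9 enzymes, RNA was highest in thymic Ad Ia and in epigonadal Ad IIc and lowest in the thymic Ad II groups. Thymic Ad Ia stood at 3832 CPM (3138 to 4635) and epigonadal Ad IIc at 3261 CPM (3107 to 3420), with overlapping intervals. Epigonadal Ad Ia followed at 2201 CPM (1965 to 2457), thymic Ad Ib at 2115 CPM (1580 to 2774) and epigonadal Ad Ib at 1422 CPM (1217 to 1652), where the interval of thymic Ad Ib overlapped both of its neighbours. These 5 groups are the Ad I sublabels of both libraries and epigonadal Ad IIc. The remaining groups were epigonadal Ad IIa at 619 CPM (576 to 665), epigonadal Ad IIb at 327 CPM (239 to 436), thymic Ad IIc at 240 CPM (128 to 410), thymic Ad IIa at 102 CPM (73.3 to 139) and thymic Ad IIb at 74.0 CPM (8.96 to 267). Among these, epigonadal Ad IIa lay above the others beyond its counting interval, and each of the lower 4 overlapped its neighbour in the order. Unlabelled barcodes stood at 619 CPM in the thymic library, the value of epigonadal Ad IIa, and at 1098 CPM in the epigonadal one.

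**Figure D1:**
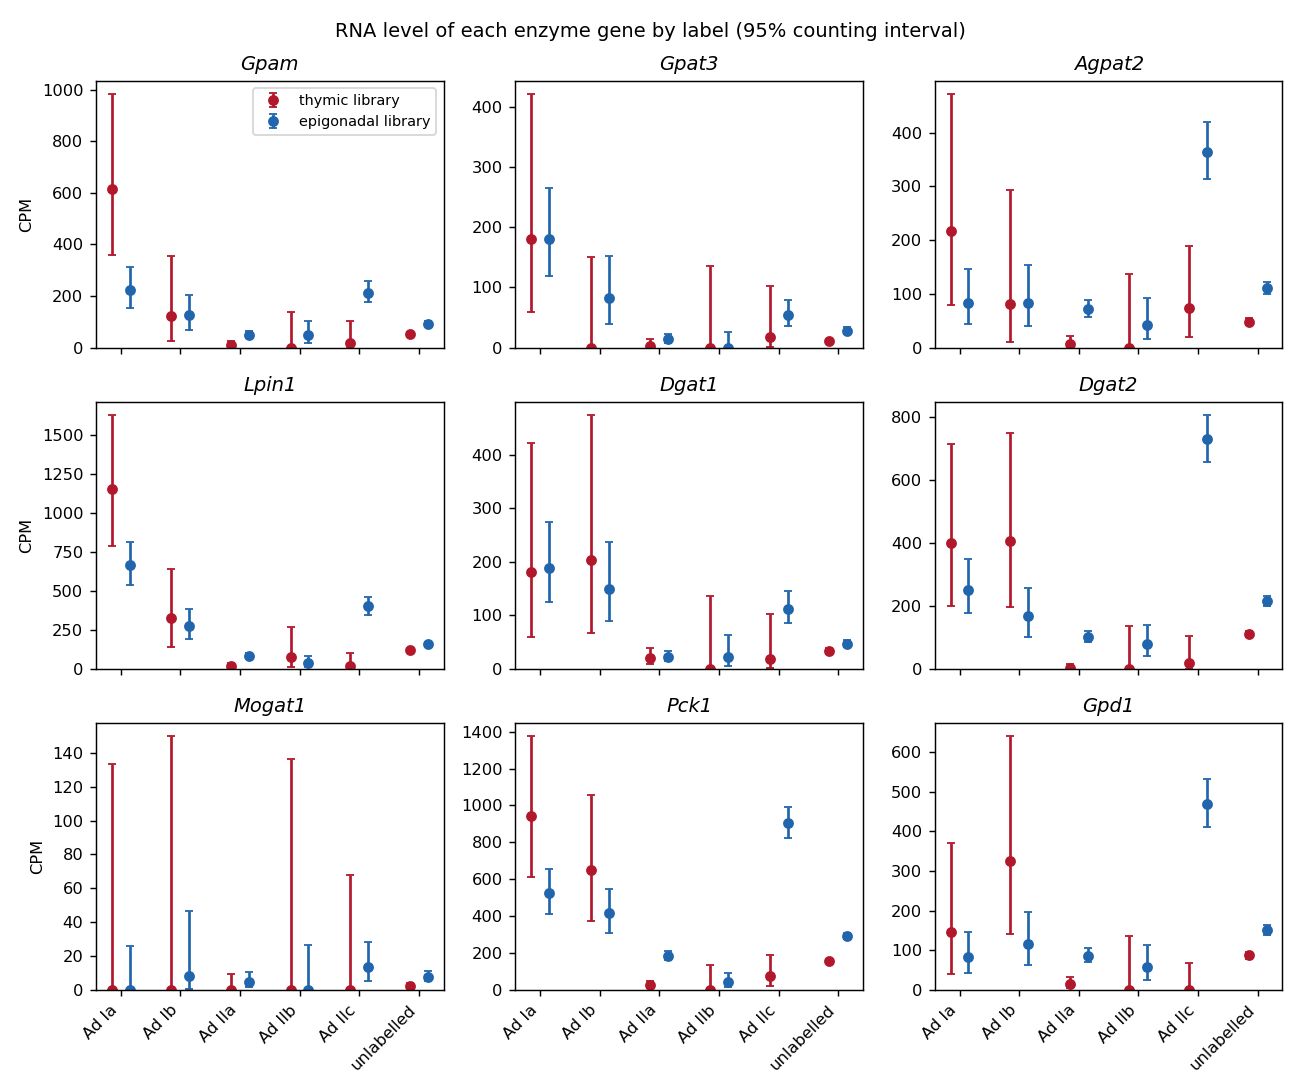
RNA level (CPM, y axis, a separate linear scale for each gene) of the 9 enzyme genes in the 5 labels and in unlabelled barcodes (x axis), with thymic values in red, epigonadal values in blue and bars for the 95% Poisson interval. Gpam and Lpin1 were highest in thymic Ad Ia (615 and 1157 CPM), whereas Dgat2 and Gpd1 were highest in epigonadal Ad IIc (728 and 469 CPM).

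The first acylation is carried out by Gpam, the mitochondrial glycerol 3-phosphate acyltransferase, and by Gpat3, its endoplasmic reticulum counterpart that is abundant in fat. Gpam (GRCm38 chr19:55067635-55127319) stood at 615 CPM in thymic Ad Ia and 122 in Ad Ib, and at 9.96, 0 and 18.4 CPM in the 3 thymic Ad II sublabels (IIa to IIc). In the epigonadal library it stood at 223, 125, 50.9, 49.7 and 213 CPM in the same order. Thymic Ad Ia stood above every other group, and its interval (358 to 984) did not reach any epigonadal value. A single nucleus gave 8 of its 17 UMIs, and without it, an alternative added after seeing the data, the value was 408 CPM (187 to 775), an interval that does hold the epigonadal values of Ad Ia and Ad IIc. Gpat3 (chr5:100845665-100899102) gave 181 CPM in Ad Ia of both libraries, from 5 thymic and 26 epigonadal UMIs, and 0 UMIs in thymic Ad Ib. Of the UMIs of the Gpam and Gpat3 pair, Gpam made up 80% (59.3 to 93.2) in thymic Ad I and 56.6% (45.3 to 67.5) in epigonadal Ad I, with overlapping intervals, and 79.7% in epigonadal Ad IIc.

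Agpat2 (chr2:26593057-26604417), which adds the second fatty acid, followed another order. Its level was 364 CPM in epigonadal Ad IIc, from 188 UMIs, against 83.6 and 83.2 CPM in the epigonadal Ad I sublabels, 71.9 in Ad IIa and 42.6 in Ad IIb. The thymic values were 217, 81.4, 7.47, 0 and 73.7 CPM, and they rest on 6, 2, 3, 0 and 4 UMIs. Among the epigonadal labels only Ad IIc thus stood apart from all the others in Agpat2 beyond counting error. Lpin1 (chr12:16535669-16653903), the phosphatase that makes diacylglycerol and that also acts in the nucleus as a coregulator, was an Ad Ia gene in both libraries. It stood at 1157 CPM in thymic Ad Ia (791 to 1633) and 669 in epigonadal Ad Ia, against 325 and 274 in Ad Ib, 19.9 and 83.3 in Ad IIa, and 401 in epigonadal Ad IIc.

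The last acylation is done by Dgat1 (chr15:76502012-76512021) and Dgat2 (chr7:99153663-99182713), unrelated enzymes of which Dgat2 is tied to newly made fatty acids and Dgat1 to recycled ones. Dgat1 was at similar levels in Ad Ia and Ad Ib of both libraries, between 150 and 203 CPM, and at 112 CPM in epigonadal Ad IIc. Dgat2 stood at 398 and 407 CPM in thymic Ad Ia and Ad Ib and at 251 and 166 CPM in the epigonadal ones. It was highest, at 728 CPM from 376 UMIs, in epigonadal Ad IIc, and it was at 2.49 CPM, a single UMI, in thymic Ad IIa. The share of Dgat2 in the UMIs of both genes was 55.4% (45.2 to 65.3) in epigonadal Ad I and 86.6% (83.1 to 89.7) in epigonadal Ad IIc, intervals that do not overlap. In thymic Ad I it was 67.7% (48.6 to 83.3), and in thymic Ad IIa 1 of 9 UMIs was from Dgat2 (11.1%, 0.281 to 48.2), against 81.6% in epigonadal Ad IIa. Mogat1 (chr1:78511060-78606964), which makes diacylglycerol from monoacylglycerol, had 0 UMIs in all 365 labelled thymic nuclei, a limit of 5.61 CPM for 3 counts, and 14 UMIs (6.49 CPM) in the labelled epigonadal ones.

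Pck1 (chr2:173153073-173159274), the cytosolic phosphoenolpyruvate carboxykinase that controls glyceroneogenesis, stood at 940.0 CPM in thymic Ad Ia (614 to 1377) and 651 in Ad Ib, and at 24.9, 0 and 73.7 CPM in the thymic Ad II sublabels. In the epigonadal library the values were 522, 416, 185, 42.6 and 905 CPM. Pck1 was thus highest in the same 5 groups as the sum, the Ad I sublabels and epigonadal Ad IIc. Gpd1 (chr15:99717587-99725014), which reduces dihydroxyacetone phosphate to glycerol 3-phosphate and so serves both the glucose and the pyruvate route, stood at 145 and 325 CPM in thymic Ad Ia and Ad Ib, at 83.6 and 116 CPM in the epigonadal ones and at 469 CPM in epigonadal Ad IIc. Of the UMIs of Pck1 and Gpd1, Pck1 made up 77.8% (64.4 to 88.0) in thymic Ad I, 82.8% in epigonadal Ad I and 65.9% (62.2 to 69.4) in epigonadal Ad IIc.

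Within each library the enzymes were higher in Ad I than in Ad IIa. Labels were drawn from the RNA of these nuclei, so this is a description of the labelled groups and not a test. In the thymic library 7 of 7 enzymes with at least 10 UMIs were 2-fold or more higher in Ad I (20.2% of all genes tested), with a median log2 ratio of 4.96. In the epigonadal library 6 of 8 were (17.5%), with a median of 1.58, and the lowest ratios were those of Agpat2 at 0.24 and Gpd1 at 0.21. In epigonadal Ad IIc over epigonadal Ad I, 3 of 8 enzymes were 2-fold or more higher, where 24.3% of genes tested were. They were Agpat2 (2.10), Dgat2 (1.77) and Gpd1 (2.23). Pck1 was at 0.93, Dgat1 at −0.61, and 1 enzyme, Gpat3 (−1.33), was 2-fold lower, where 37.5% of genes were. Many genes thus differed between these labels, and the counts do not set the enzymes apart from them. The 3 higher genes act at the second acylation, the third acylation and the supply of glycerol 3-phosphate. The mitochondrial share of UMIs was 6.29% in epigonadal Ad IIc and 5.58% in epigonadal Ad I, and median depth was 714 and 744.5 UMIs. The 12 adipocyte markers summed to 70550 CPM in epigonadal Ad IIc and 16949 CPM in epigonadal Ad I. Enzyme UMIs per 100 UMIs of these markers were 4.62 and 10.9. The part of these differences in the ratios was not tested.

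Between Ad Ia and Ad Ib, Lpin1 was higher in Ad Ia in both libraries. These sublabels too were drawn from the RNA of these nuclei, so the ratios describe the labelled groups and test nothing. Its log2 ratio, Ad Ia over Ad Ib, was 1.76 (0.68 to 3.16) in thymus and 1.27 (0.70 to 1.90) in epigonadal fat. Gpam was at 2.15 (0.54 to 4.75) in thymus, from 17 and 3 UMIs, and at 1.60 (−0.26 to 4.26) without the Ad Ia nucleus richest in enzyme UMIs, where Lpin1 was at 1.90 (0.79 to 3.31). Gpat3 was at 1.08 (0.02 to 2.34) in epigonadal fat. In all, 2 of 6 testable enzymes were 2-fold or more higher in thymic Ad Ia (15.4% of genes) and 1, Gpd1 at −1.09, was lower (13.6%), while 2 of 8 were higher in epigonadal Ad Ia (9.97%). Ad Ia and Ad Ib also differed in endothelial markers, at 72.3 against 2563 CPM in thymus and 606 against 1663 CPM in epigonadal fat. Median depth was 604 against 442 UMIs in thymus and 1077 against 678.5 UMIs in epigonadal fat. The part of these differences in the enzyme ratios, and whether the ratios of the 2 libraries differ, was not tested.

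Thymic and epigonadal Ad I nuclei were compared next, the label in which both libraries held Plin1 and Adipoq above 200 CPM. In this comparison 5 of 8 enzymes had intervals above 0 and 0 had intervals below it, beside 7.48% and 4.26% of all genes. The width of an interval follows the UMIs of the gene, and 5 of the 8 enzymes but only 1084 of the 5346 genes had at least 50 UMIs. No share was taken among genes of like UMIs. Gpam gave 20 thymic against 47 epigonadal UMIs (383 and 178 CPM), a log2 ratio of 1.12 (0.27 to 1.89), and Gpd1 gave 12 against 26 UMIs (230 and 98.5 CPM), a ratio of 1.25 (0.10 to 2.26). Dgat2 stood at 402 against 212 CPM (0.94, 0.12 to 1.67), Pck1 at 804 against 474 CPM (0.77, 0.22 to 1.28) and Lpin1 at 766 against 489 CPM (0.66, 0.10 to 1.17). These genes cover each stage of the pathway except the second acylation. Agpat2 at 0.93 (−0.50 to 2.10), Dgat1 at 0.22 (−0.99 to 1.18) and Gpat3 at −0.39 (−2.22 to 0.84) had intervals across 0, and Mogat1 had 0 and 1 UMIs.

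Of 8 enzymes measured in Ad I, 7 lay above 0 and 2 were 2-fold or more higher in thymus, where 15.2% of all genes were, and 0 were 2-fold lower, where 17% were. The median log2 ratio of the 8 was 0.85, beside 0.08 for all genes, of which 2879 of 5346 lay above 0. TMM and median-of-ratios scaling each moved the log2 ratio of every gene in Ad I by −0.34, which leaves the gap between the enzymes and all genes as it was. After that shift 0 of 8 enzymes were 2-fold higher, and it is more than the lower bound, 0.10 to 0.27, of each of the 5 intervals above 0. A single thymic Ad Ia nucleus of 6655 UMIs held 27 of the 158 enzyme UMIs of thymic Ad I, among them 8 of Gpam, 5 of Dgat2, 4 of Lpin1 and 4 of Pck1. Without it and without the epigonadal nucleus richest in these genes, a choice made after seeing the data, the median of the 8 was 0.77 beside 0.15 for all genes. Gpam then stood at 0.61 (−0.49 to 1.51), Dgat2 at 0.80 (−0.14 to 1.60) and Gpd1 at 1.19 (−0.07 to 2.26). Lpin1 at 0.76 (0.17 to 1.30) and Pck1 at 0.78 (0.20 to 1.30) kept intervals above 0.

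Other RNA differed between the Ad I groups as well. The 12 adipocyte markers summed to 11428 CPM in thymic and 16949 CPM in epigonadal Ad I. Brown fat markers summed to 593 CPM in thymic Ad I (31 UMIs, 5 of them Ucp1 and 16 Cidea) against 30.3 CPM (8 UMIs, Ucp1 at 0) in epigonadal Ad I. T cell markers stood at 555 against 106 CPM and endothelial markers at 1244 against 1088 CPM, and the mitochondrial share of UMIs was 14.7% against 5.58%. In thymic Ad Ia, where Gpam and Lpin1 were highest, endothelial markers came to 2 UMIs (72.3 CPM) with Pecam1 at 0, and brown fat markers to 289 CPM. In thymic Ad Ib the 12 adipocyte markers summed to 9153 CPM, endothelial markers to 2563 CPM and brown fat markers to 936 CPM, against 17472, 1663 and 24.9 CPM in epigonadal Ad Ib. Brown adipocytes are known for high glycerol kinase, and Gk was at a log2 ratio of 2.13 (0.27 to 3.91) in Ad I. The part of brown fat RNA, T cell RNA and mitochondrial RNA in the enzyme ratios was not tested.

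Thinned to 500 UMIs per nucleus, a UMI of any of the 9 enzymes was found in 29 of 42 thymic Ad I nuclei (69.0%, 52.9 to 82.4, Clopper-Pearson) and in 130 of 258 epigonadal ones (50.4%, 44.1 to 56.6). The 42 other thymic nuclei were too shallow, 33 of the 49 in Ad Ib but 9 of the 35 in Ad Ia, so the sublabel mix of the thinned sets differs. In Ad Ia alone the shares were 80.8% (60.6 to 93.4) and 59.4% (49.5 to 68.9), and in Ad Ib alone 50% (24.7 to 75.3) and 44.1% (36.0 to 52.4), each with overlapping intervals. Unthinned, the shares in all Ad I nuclei were nearly the same, at 59 of 84 (70.2%) and 183 of 258. In thymic Ad IIa, which holds endothelial markers and whose median depth is higher, 10 of 229 thinned nuclei (4.37%) held such a UMI. Epigonadal Ad IIa stood at 22.2% and epigonadal Ad IIc at 73.4%. Pck1 alone was found in 15 of 42 thinned thymic and 50 of 258 epigonadal Ad I nuclei (35.7% and 19.4%, with overlapping intervals), and Dgat2 in 2 of 42 and 21 of 258 (4.76% and 8.14%), the opposite order of their CPM for Dgat2. From the Dgat2 shares no order is read. In a separate random thinning, the log2 ratio of Dgat2 in Ad I was −0.83 and that of Agpat2 −1.87, against 0.94 and 0.93 unthinned. In the thinning used for the shares, Agpat2 was found in 2 of 42 thymic and 9 of 258 epigonadal nuclei (4.76% and 3.49%), the other order. Thinning leaves few thymic UMIs of Agpat2, so its sign after thinning is not read. UMIs of at least 2 different enzymes occurred in 24 of 84 thymic and 103 of 258 epigonadal Ad I nuclei before thinning.

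**Figure D2:**
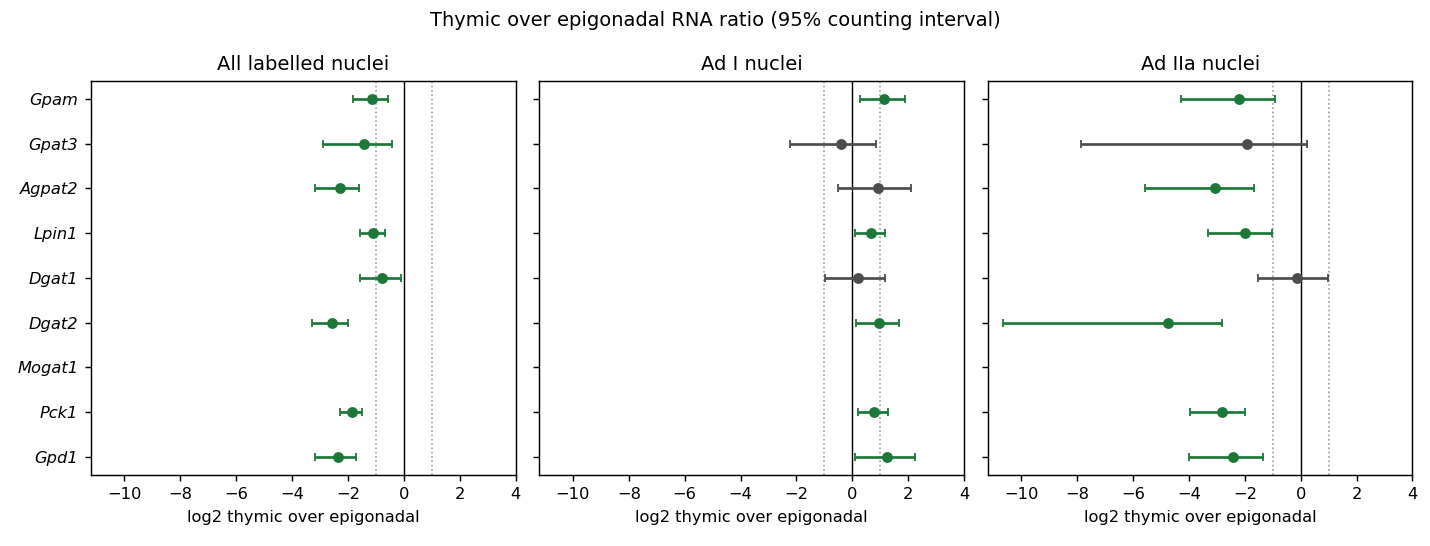
Log2 ratio of RNA level, thymic over epigonadal (x axis), for each enzyme gene (y axis) over all labelled nuclei, Ad I nuclei and Ad IIa nuclei. Points show the ratio and bars the 95% counting interval, green where it leaves out 0, dotted lines mark a 2-fold difference, and Mogat1 is not drawn because its thymic sum is 0. Gpam, Lpin1, Dgat2, Pck1 and Gpd1 lie right of 0 in Ad I and left of it in the other panels.

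Over all labelled nuclei and in Ad IIa the order was the opposite, with less enzyme RNA in the thymic library. All labelled thymic nuclei stood at 400.0 CPM (348 to 457) and epigonadal ones at 1382 CPM (1333 to 1432) for the 9 genes together. Dgat2 was at −2.58 (−3.28 to −2.01), Gpd1 at −2.36, Agpat2 at −2.29, Pck1 at −1.86, Gpat3 at −1.43, Gpam at −1.15, Lpin1 at −1.10 and Dgat1 at −0.77 on the log2 scale. In this comparison 8 of 9 enzymes were 2-fold or more lower (20.2% of all genes were), 7 with Mogat1 at its counting limit of 3 thymic counts, where it is 1.16-fold lower. That fold leaves out the counting error of its 14 epigonadal UMIs. Without the nuclei richest in enzyme UMIs, the exact interval of Mogat1 ran up to 0.30, across 0. The median was −1.86 (−1.43 with Mogat1 at that limit), beside 0.02 for all genes. Most labelled thymic nuclei were Ad IIa, where Adipoq stood at 9.96 CPM. With the CPM of the 5 labels averaged at equal weight, an alternative added after seeing the data, 1 of 9 enzymes was 2-fold lower, against 23.2% of all genes weighted the same way. That one was Mogat1, and with it at its counting limit 0 were. The other 8 lay between −0.75 (Agpat2) and 0.22, and Gpam (0.22) and Lpin1 (0.13) lay above 0. Fewer adipocytes and less enzyme RNA per adipocyte cannot be told apart in such a sum.

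In Ad IIa 7 of 8 enzymes were 2-fold or more lower in thymus, against 16.2% of all genes, with a median of −2.31 beside −0.02. Dgat2 showed the lowest ratio, at −4.75 (−10.65 to −2.83), from 1 thymic UMI and 124 epigonadal ones. Agpat2 was at −3.05, Pck1 at −2.83, Gpd1 at −2.42, Gpam at −2.20, Lpin1 at −1.98 and Gpat3 at −1.92 with an interval across 0. Dgat1, with 19.9 against 22.6 CPM, was at −0.12. Of the genes measured in both labels, 0.867% had an interval above 0 in Ad I and below 0 in Ad IIa, the 5 enzymes among them. That share was not matched for UMIs, on which the width of an interval depends. In Ad IIc 7 of 8 were 2-fold lower, where 32% of genes were, with a median of −3.20 (−3.02 with Gpd1 at its limit). Gpd1 had 0 thymic against 242 epigonadal UMIs there, 8.48-fold lower at that limit. Beside this, Adipoq was at 9.96 CPM in thymic Ad IIa against 449 CPM in epigonadal Ad IIa. It was at 55.3 CPM in thymic Ad IIc against 2513 CPM in epigonadal Ad IIc. The 12 adipocyte markers summed to 12555 CPM in thymic and 24552 CPM in epigonadal Ad IIa. The part of this difference in the enzyme ratios was not tested.

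To set the enzymes beside adipocyte RNA, their UMIs were given per 100 UMIs of 9 adipocyte markers. Fabp4, Pparg and Lpl were left out after their values were seen. Fabp4 made up 3557 of 5040 marker UMIs in thymic Ad IIa, a group with endothelial markers. That reason covers Fabp4 only. Pparg and Lpl were higher in thymic than in epigonadal Ad I, at 1417 against 891 and 2622 against 1823 CPM. On this measure thymic Ad Ia stood at 56.4 (44.0 to 71.9), thymic Ad Ib at 104 (69.2 to 157) and thymic Ad IIa at 25.2 (17.4 to 35.6). Epigonadal Ad Ia stood at 25.8 (22.7 to 29.2), Ad Ib at 19.0 and Ad IIa at 10.7 (9.88 to 11.5). The thymic value was the higher one in each of the 5 labels and in unlabelled barcodes (44.7 against 11.3), with overlapping intervals in Ad IIb (25 against 12.1). The order rests on the markers chosen: with all 12, Ad I stayed at 26.5 against 10.9, while Ad IIa stood at 0.81 against 2.52 and Ad IIc at 1.24 against 4.62. The 9 markers themselves were lower in thymic Ad I, at 4556 against 8061 CPM.

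**Figure D3:**
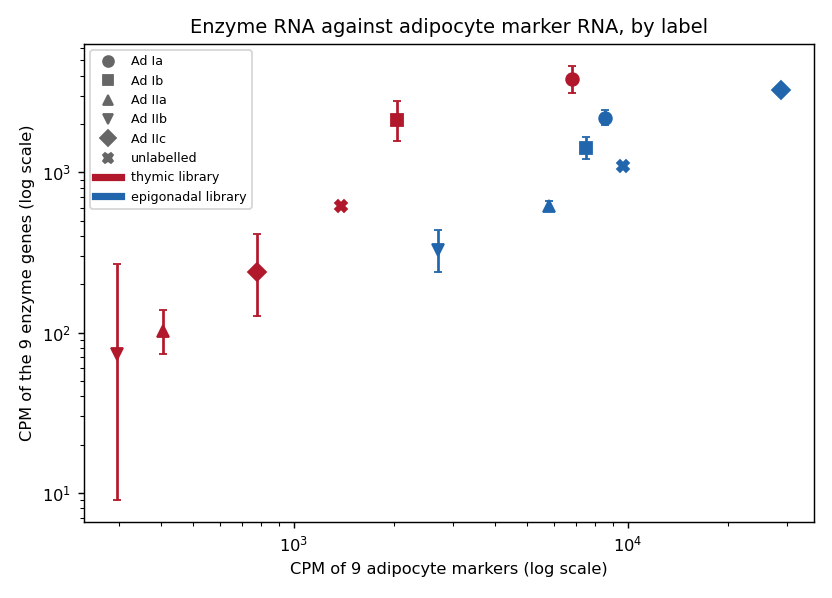
Summed level of the 9 enzyme genes (y axis, CPM, log scale) against that of 9 adipocyte markers (x axis, CPM, log scale), 1 symbol per label and for unlabelled barcodes, thymic in red and epigonadal in blue, with 95% Poisson intervals on the enzyme sum. Thymic symbols lie to the left of epigonadal ones of like height on these 9 markers, from which Fabp4, Pparg and Lpl were left out after seeing the values. With all 12 markers, thymic Ad IIc (19369 CPM) would lie to the right of epigonadal Ad IIb (12185 CPM). Ad Ia and Ad Ib, summed as Ad I, come to 3024 CPM of enzymes and 4556 of the 9 markers in thymus and to 1846 and 8061 in epigonadal fat.

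Unlabelled barcodes also held these RNAs. Pck1 was at 157 CPM in unlabelled thymic barcodes (722 UMIs) and at 292 CPM in epigonadal ones, Dgat2 at 109 and 215 CPM, Lpin1 at 119 and 157 CPM and Gpam at 53.2 and 91.6 CPM. All 9 enzymes lay below 0, thymic over epigonadal, and 3 were 2-fold lower, beside 22.4% of all genes. The 2 sets of unlabelled barcodes differed in content, with the 12 adipocyte markers at 5569 against 27765 CPM and T cell markers at 5657 against 424 CPM. Mitochondrial RNA made up 51.2% against 10.6% of UMIs, and median depth was 308 against 794 UMIs. The part of these differences in the ratios was not tested. Thymic Ad I stood above unlabelled thymic barcodes by 2-fold or more in 8 of 8 enzymes, where 37.9% of genes did, while epigonadal Ad I did so in 3 (15.9%). Among unlabelled barcodes with 3 or more adipocyte markers the median ratio was −0.10, with Lpin1 at 0.77, Gpam at 0.69, Dgat1 at 0.52 and Pck1 at 0.29 above 0, and Gpd1 at −0.10, Dgat2 at −0.21, Gpat3 at −0.21, Agpat2 at −0.24 and Mogat1 at −0.98 below. In these barcodes 0 enzymes were 2-fold apart either way, where 11.5% of genes were higher and 16.8% lower. Among those with fewer, 4 of 8 were 2-fold higher in thymus (10.3%), with a median of 1.03. In these, adipocyte markers summed to 4258 thymic against 2396 epigonadal CPM, brown fat markers to 382 against 6.43 and T cell markers to 6172 against 1205. Mitochondrial RNA made up 52.9% against 11.3% of UMIs, and median depth was 304 against 822 UMIs. Their part in the enzyme ratios was not tested. A single unlabelled thymic barcode held 38 enzyme UMIs, among them 16 of Pck1, 10 of Lpin1 and 4 of Gpd1.

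The other genes of the pathway, listed with earlier results of these data known, lay on both sides of 0 over all labelled nuclei. Of 11 further enzymes of the same steps, 1 was 2-fold higher, 1 was lower (8.12% and 20.2% of all genes) and the median was 0.35, with Agpat4 at 1.26 and Lpin2 at 0.83, and with Agpat1 at −1.13 and Agpat3 at −0.65 as the lowest. In Ad I, 7 of them could be compared, with a median of 0.41, Gpat4 at 1.09 and Agpat3 at 0.64 the highest. Lpin2 had 0 thymic and 16 epigonadal UMIs in Ad I, at least 1.06-fold lower, and Plpp1, a lipid phosphate phosphatase, 0 and 22, at least 1.45-fold lower. Beside these medians, that of all genes was 0.02 over all labels and 0.08 in Ad I. Of the 4 acyl-CoA synthetases, which activate fatty acids before esterification, none was 2-fold apart over all labels (Acsl1 −0.56, Acsl5 0.13, Acsl3 0.16, Acsl4 0.32). In Ad I, Acsl1, the main one in fat, was at 1972 against 1114 CPM (0.83, 0.49 to 1.15) and Acsl4 at −1.12.

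The supply of glycerol 3-phosphate and pyruvate was split over all labels, with 1 of 10 genes 2-fold higher and 4 lower (8.12% and 20.2% of all genes) and a median of −0.18. The malate dehydrogenases Mdh1 (−3.19) and Mdh2 (−2.12) were the lowest, and Gk, glycerol kinase (0.80), and Got2, the mitochondrial aspartate aminotransferase (1.04), the highest. In Ad I, 3 of 7 were 2-fold higher and 0 lower (15.2% and 17% of all genes), with a median of 0.59. Pdk4, the kinase that spares pyruvate from oxidation in fasting, was at 249 against 60.6 CPM (2.05, 0.86 to 3.19) and Gk at 2.13, while Mdh2 was at −0.10 and Aqp7, the glycerol channel of fat, at −0.28. Of 8 phospholipid enzymes that draw on the same intermediates, 1 was higher and 1 lower over all labels (8.12% and 20.2% of all genes; median 0.09), from Chpt1 at −1.55 and Pcyt2 at −0.15 to Cds2 at 0.81 and Cept1 at 1.05. In Ad I, 2 of 4 were higher, beside 15.2% of all genes (median 1.05), with Chpt1, a cholinephosphotransferase that also uses diacylglycerol, at 1417 against 652 CPM (1.13, 0.71 to 1.52), Cept1 at 1.50, Pcyt1a at 0.98 and Pgs1 at −0.10. The genes of droplet assembly and lipin control had a median of −0.64 over all labels, with 0 of 4 higher and 1 lower (8.12% and 20.2% of all genes), Bscl2, which encodes seipin, at −2.83, Fitm2 at −0.65, Ctdnep1 at −0.62 and Cnep1r1 at 0.67. In Ad I only Bscl2 (−0.63) and Fitm2 (1.90) could be compared.

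Across the 10 groups formed by 5 labels in 2 libraries, the genes most like each enzyme in log2 CPM were sought among 2551 genes with at least 200 UMIs. The nearest to Pck1 were Hibch, Ces1d and B3galt2 (Pearson r from 0.98 to 0.99), and those of Dgat2 included B3galt2 and Cyp2e1 (both 0.97) and those of Dgat1 Acsl1 and Fam13a (both 0.98). Gpam was nearest to Pmepa1, Mapk6 and Hacd2 (0.97), Lpin1 to Echdc1, Celf2 and Sgcd (0.96 to 0.97), and Agpat2 to Cdkn2c, Thrsp and Cib2 (0.94 to 0.97). Gpd1 was nearest to Mdh1, Mtch2 and C3 (0.94 to 0.95), and Gpat3 to Klhl2, Por and Cachd1 (0.89 to 0.90). Among the enzymes Dgat2 and Pck1 were most alike (0.95) and Gpat3 and Gpd1 least alike of those with at least 50 UMIs (0.38). The 10 points share libraries, labels and depth, and the values describe these groups only.

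Chromatin accessibility of the same genes was read in the 6-month thymic nuclei, which the authors labelled thyAD I, thyAD II and Immune. There were 146, 140 and 31 nuclei, with 1646902, 2189613 and 561387 fragments. A fragment was counted for a gene when it overlapped the gene body or 2 kb on either side, and levels are fragment CPM, that is fragments scaled to 1000000 fragments of the label. None of the 9 genes differed 2-fold between thyAD II and thyAD I, where 4.46% of genes were higher and 2.99% lower, and the median log2 ratio was −0.10 beside 0.02 for all genes. Agpat2 stood at 84.0 fragment CPM in thyAD II and 120 in thyAD I (−0.51, −0.81 to −0.21), Gpd1 109 and 148 (−0.44, −0.70 to −0.18) and Pck1 137 and 175 (−0.36, −0.60 to −0.12). Gpat3 went the other way, with 165 and 134 (0.30, 0.05 to 0.55). Intervals lay below 0 for these 3 of 9 genes and above 0 for 1, beside 5.54% and 5.6% of all genes. Those shares cover all genes with at least 10 fragments, and more fragments give a narrower interval. Over gene bodies without the flanks, an alternative added after seeing the data, the 3 lower ratios were −0.34 for Agpat2, −0.40 for Gpd1 and −0.12 for Pck1, all with intervals across 0, and in windows around gene ends Gpat3 was at −0.05 with an interval across 0. Gpam at −0.10, Lpin1 at 0.00, Dgat1 at −0.16, Dgat2 at −0.04 and Mogat1 at −0.07 had intervals across 0. The adipocyte markers were at a median of −0.06, endothelial markers at 0.08 and brown fat markers at −0.56 in the same comparison. How these labels relate to those of the RNA libraries is not stated in the labels.

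**Figure D4:**
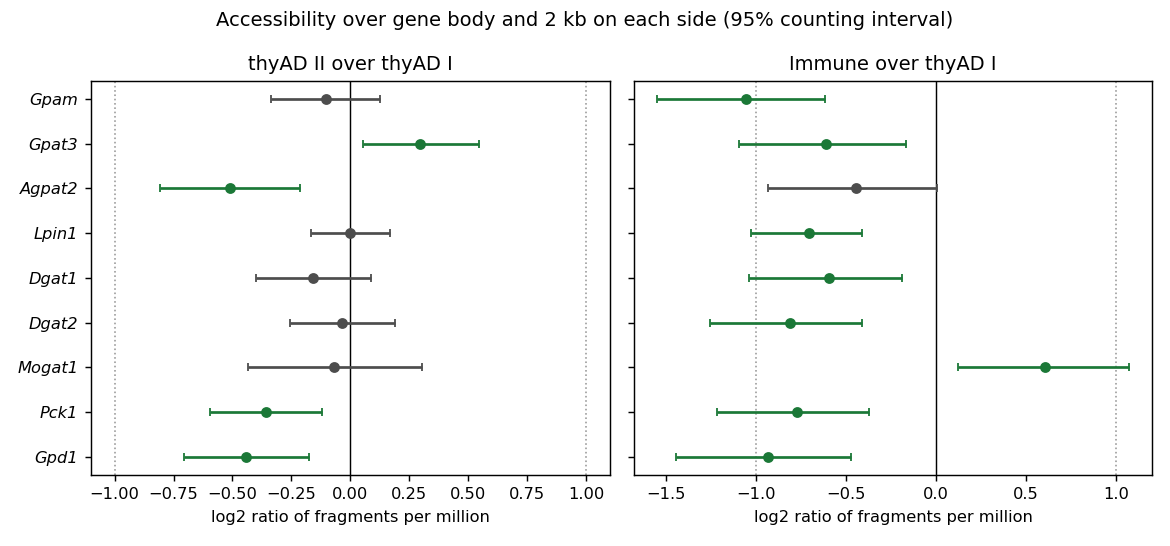
Log2 ratio of fragment CPM over the gene body and 2 kb on either side (x axis, a different range in each panel) for each enzyme gene (y axis), thyAD II over thyAD I on the left and Immune over thyAD I on the right. Bars are 95% counting intervals, green where they leave out 0, and dotted lines mark a 2-fold difference. Gpat3 is the 1 gene right of 0 on the left, and Mogat1 is the 1 gene right of 0 on the right. On the left the intervals of Agpat2, Pck1 and Gpd1 lie below 0, and on the right that of Agpat2 crosses 0.

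Immune nuclei had lower fragment levels at most enzyme genes than thyAD I nuclei. The labels rest on a joint clustering of RNA and fragments, so this too is a description. In this comparison 8 of 9 genes lay below 0, 1 was 2-fold lower (9.48% of all genes were) and the median was −0.71 beside −0.03. Of all 24622 genes compared, 11921 lay above 0. Gpam was the lowest at −1.06 (−1.55 to −0.61), the interval of Agpat2 at −0.44 crossed 0, and Mogat1 was higher at 0.61 (0.12 to 1.07). For scale, T cell markers were at a median of 2.31 and adipocyte markers at −0.56. Per kilobase of window in thyAD I, Pck1 was the most accessible gene at 17.1 fragment CPM per kilobase, before Gpd1 at 12.9, Dgat1 at 11.2, Agpat2 at 7.79, Dgat2 at 5.44, Gpam at 2.70, Lpin1 at 2.56, Gpat3 at 2.34 and Mogat1 at 0.681. The 4 longest windows came last in that order. The windows of all but Dgat2 and Pck1 also hold other genes, and fragments cannot be split between them. The protein-coding ones were Egfl7 beside Agpat2 (with the microRNA genes Mir126a and Mir126b), Cox14 beside Gpd1, Abraxas1 beside Gpat3, Hsf1 beside Dgat1 and Ntsr2 beside Lpin1, and the windows of Gpam and Mogat1 hold noncoding genes. Egfl7 is an endothelial gene.

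Within 500 bases of its start, Pck1 stood at 57.1 fragment CPM in thyAD I, more than 98.1% of 32851 listed starts, with 42.9 in thyAD II and 30.3 in Immune nuclei (94, 94 and 17 fragments). Among the enzymes with a listed start, Agpat2 followed with 54.6, 39.3 and 46.3 fragment CPM, above 97.7% of starts in thyAD I. Dgat1, Dgat2 and Gpd1 have no listed start. Within 500 bases of their higher-coordinate gene ends they stood at 74.7, 43.7 and 39.5 fragment CPM in thyAD I, so the Dgat1 end lay above the Pck1 start. Gpat3 stood at 24.9, 22.8 and 7.13 and Mogat1 at 16.4, 8.68 and 12.5 fragment CPM. The 2 Gpam starts differed in order: the upstream one had 14, 33 and 1 fragments (8.50, 15.1 and 1.78 fragment CPM) and the downstream one 15.8, 10.5 and 5.34 fragment CPM, so the upstream value was the greater in thyAD II and the downstream one in thyAD I, each with overlapping intervals. Both overlap noncoding genes, Gm31418 and Gm31356. The listed Lpin1 start, which lies inside the gene's span, had only 2, 5 and 1 fragments within 500 bases on either side. In a window of the same size, the 5′ end of the annotated gene span at 16653903, where Ntsr2 overlaps, had 43, 70 and 7. Of windows of 500 bases, ranked by all 3 labels together, the densest, chr12:16618669-16619168, had 46, 47 and 5 fragments. The next, chr12:16653169-16653668, had 32, 53 and 7. For Lpin1 the open sites thus lay away from the start whose sequence is shown above.

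Pck1 also had a second accessible place upstream of the promoter shown. In the bin from −1250 to −1001 bases of its start there were 64 transposase cut sites in thyAD I, 59 in thyAD II and 9 in Immune nuclei, or 38.9, 26.9 and 16.0 on the CPM scale. In the 250 bases before the start there were 79, 99 and 11, or 48.0, 45.2 and 19.6 on that scale. A distal region of the Pck1 promoter is known to carry the PPARγ element that drives its expression in fat, and no sequence of it was used here. Over 7 listed starts of 6 enzyme genes the 250 bases before the start held 18.5 cut sites per start, on the same scale, in thyAD I, 14.8 in thyAD II and 7.89 in Immune nuclei, against 8.43, 7.83 and 8.72 over all starts. Pck1 and Agpat2 gave most of these in both thyAD labels, 79 and 55 of 213 cut sites in thyAD I and 99 and 34 of 227 in thyAD II. In thyAD I the remaining starts stood at 14.6 (Gpat3 and downstream Gpam), 11.5 (Mogat1), 7.29 (upstream Gpam) and 0 (Lpin1). In the bin from −1250 to −1001 bases the 7 starts held 78 cut sites in thyAD I, of which the 64 of Pck1 are the greater part.

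**Figure D5:**
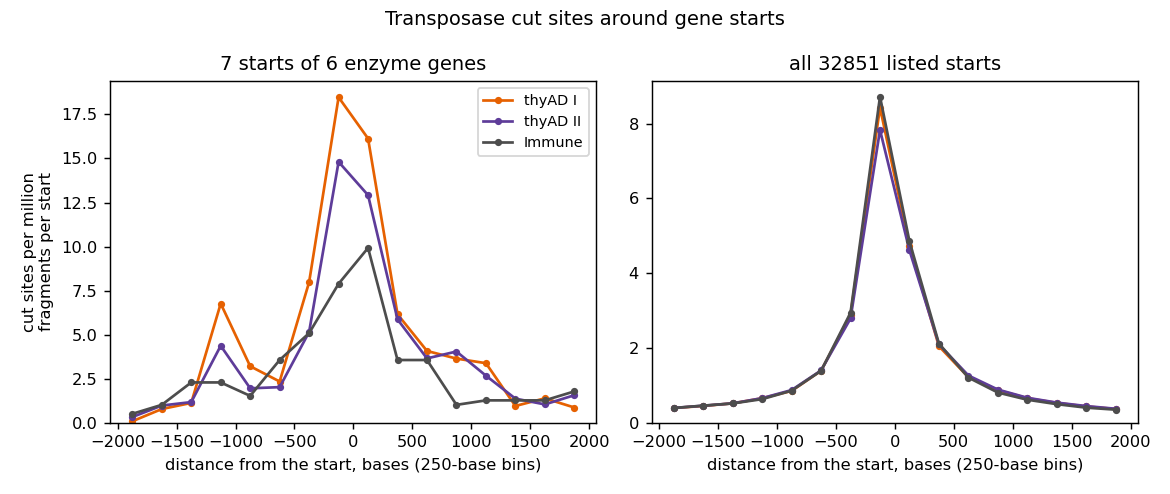
Transposase cut sites per start, scaled to 1000000 fragments of the label (y axis, a different range in each panel) by distance from the start in 250-base bins (x axis), for 7 starts of 6 enzyme genes on the left and all 32851 listed starts on the right, with lines for thyAD I, thyAD II and Immune nuclei. On the left the Immune line stays below both thyAD lines just before the start (7.89 beside 18.5 and 14.8), while on the right the 3 lines nearly coincide. Pck1 (79) and Agpat2 (55) give most of the 213 thyAD I cut sites in that bin on the left.

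Within the thymic chromatin labels some enzymes also differed between the clusters of the authors' joint analysis, by log2 ratios as large as those between thyAD II and thyAD I. Cluster 3 over cluster 1, both in thyAD I, had Gpam at 0.50 and Pck1 at 0.41, and cluster 4 over cluster 0, both in thyAD II, had Pck1 at 0.52, Gpam at −0.48 and Dgat2 at −0.42. In cluster 4 Pck1 stood at 167 fragment CPM (141 to 197), near its 175 in thyAD I, and in cluster 0 at 117 (98.9 to 136), while Gpam stood at 129 (106 to 155) and 180 (158 to 204). No enzyme was 2-fold apart in either comparison, where 3.77% of genes were higher and 6.24% lower in cluster 3, and 3.48% were higher and 3.47% lower in cluster 4.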

How the data were processed

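The authors deposited raw UMI counts per gene and barcode for the 4-month libraries, whose headers name cellranger 7.2.0, with a table of labels and a doublet class per nucleus, which were taken as given. The build mm10 and Seurat 5.1.0 are named in the submitters' processing notes. They deposited fragments with Cell Ranger ARC 2.0.2 per the file headers and a label table for the 6-month nuclei whose copy here gave 317 complete rows. Later nuclei were not analysed here. The treatment of introns and the annotation of the RNA matrices are not stated in the labels or headers.

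UMIs were summed by library and label and scaled to CPM over nuclear-encoded genes. Log2 ratios used 0.5 UMI on each side, a minimum of 10 UMIs over both and exact binomial intervals at 95%. Past the fold means 2-fold or more. A count of 0 was given a limit of 3 counts. A fold at this limit leaves out the counting error of the other sum and is not a lower bound. Since each group is 1 library, no test was run and no p-value is given. PCR duplicates were collapsed by UMI. Alternatives were TMM (edgeR 4.0.16 in R 4.3.3), scaling by the median of ratios, a mean over nuclei of equal weight, subtraction of the profile of unlabelled barcodes, nuclei with at least 1000 UMIs, thinning to 500 UMIs, a pseudocount of 5, a minimum of 50 UMIs, and for chromatin cut sites, windows at gene ends and nuclei with 3000 fragments. Equal weight per label, single labels, leaving out the nucleus richest in enzyme UMIs, totals without 3 abundant RNAs and gene bodies without flanks were added after seeing the data. Scripts used Python 3.11.15, numpy 2.4.6, scipy 1.17.1 and pandas 2.3.3 and were tested on simulated data. The subtracted profile made up 25.1% of epigonadal and 9.81% of thymic Ad I UMIs, and since 76.7% of unlabelled epigonadal barcodes held 3 or more adipocyte markers, it also removed adipocyte RNA.

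Named were all 9 enzymes, of each pathway list the 2 highest and 2 lowest ratios, and for each enzyme with at least 50 UMIs the 3 genes with the highest correlation of log2(CPM + 10). Some of these neighbours are not reported here. Members and lists were chosen with earlier results of these data known. Lists were other enzymes of the same steps, glycerol 3-phosphate and pyruvate supply, acyl-CoA supply, phospholipid synthesis and droplet assembly, in which 45 of 46 genes were found. Coordinates and starts are from RefSeq on GRCm38.p6.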

Additional observations from a re-analysis of the deposited data

Results flagged for a closer look

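Between libraries, 5 enzymes had intervals above 0 in thymic Ad I and below 0 in thymic Ad IIa, as did 0.867% of all genes measured in both labels, a share not matched for UMIs. Agpat2 (0.93 and −3.05) and Dgat1 (0.22 and −0.12) had the same signs with Ad I intervals across 0. The log2 ratio in Ad I minus that in Ad IIa was 3.32 for Gpam, 2.64 for Lpin1, 5.69 for Dgat2, 3.60 for Pck1 and 3.68 for Gpd1. Each label is 1 library per tissue, so the difference was not tested. Dgat2 rests on 1 thymic UMI in Ad IIa, and its Ad I ratio was −0.83 after a single random thinning. Without the nuclei richest in enzyme UMIs, the Ad I ratio of Gpam went from 1.12 to 0.61, that of Dgat2 from 0.94 to 0.80 and that of Gpd1 from 1.25 to 1.19, all with intervals across 0. Thymic Ad IIa carries endothelial markers and little Adipoq or Plin1, but Pparg at 2371 CPM. Epigonadal Ad IIa carries endothelial markers and Adipoq at 449 CPM. Ad I and Ad IIa may therefore not compare one cell type, and the part of this in the ratios was not tested.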

How the results depend on the processing

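Over all labelled nuclei, the 8 enzymes counted as 2-fold lower (7 with Mogat1 at its counting limit) became 4 with a pseudocount of 5 (6.67% of all genes) and 1 with equal weight per label (23.2%), which was Mogat1 (0 with it at its limit), and where Gpam stood at 0.22 and Lpin1 at 0.13. With a pseudocount of 5 Mogat1, at 0 thymic UMIs, came to 0.086 over all labelled nuclei. In Ad I the 2 enzymes that were 2-fold higher became 0 with TMM and 0 with median-of-ratios scaling (7.43% of all genes in both), 1 with equal weight per nucleus (18.9%), 1 after thinning (22.4%), 1 with a minimum of 50 UMIs (9.13%) and 1 without the nucleus richest in enzyme UMIs (17.2%), and 4 after subtraction of the unlabelled profile (18.9%), 4 in nuclei with at least 1000 UMIs (18.7%) and 4 with a pseudocount of 5 (39.7%). The counts of 7 enzymes lower in Ad IIa and 7 above 0 in Ad I stayed within 1.5 times under every alternative run, but the genes differed: in Ad I Gpam, Gpd1, Lpin1 and Pck1 kept their sign throughout, and Agpat2, Dgat1, Dgat2 and Gpat3 did not, with Dgat2 at −0.83 and Agpat2 at −1.87 after thinning. The thinned ratios come from a single random draw. Another draw found Agpat2 in 4.76% of thymic and 3.49% of epigonadal Ad I nuclei, the other order. The sign of Agpat2 after thinning is therefore not read. Dgat1 lay below 0 under the 2 scalings, which move all Ad I genes alike. In chromatin, the 3 intervals below 0 became 0 for gene bodies without flanks and the 1 above 0 became 0 in windows at gene ends. Of the values of single genes, 281 stayed inside the counting interval of the reported value and 20 left it, while 3 past 2-fold, the all-label ones above, changed sign; sign changes of values under 2-fold, as in Ad I, are not among those 3. Every 6-month nucleus had at least 3000 fragments, so that choice changed nothing. The cause of these shifts was not tested. No paired analysis was possible because each group is 1 library. Depth limits the thymic side most: Gpat3 and Agpat2 rest on 5 and 8 UMIs in Ad I. The count in nuclei with at least 1000 UMIs rests on 9 of 84 thymic and 79 of 258 epigonadal Ad I nuclei. The thymic nucleus of 6655 UMIs is among the 9.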
